A study of Rattus norvegicus with 2 samples.

Results

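*Socs1*, *Socs2*, *Socs3*, *Cish*, *Stat3* and *Pim1* were described across 11 clusters of cardiac cells with and without lipopolysaccharide (LPS). These 6 genes were taken by symbol from a list of 25399 genes. The cells came from hearts of Sprague-Dawley rats aged 1 to 3 days, with both sexes pooled. They were enriched on Percoll for intrinsic cardiac adrenergic (ICA) cells, which make catecholamines within the heart, and kept in culture. One arm received LPS, the endotoxin of Gram-negative bacteria (1 µg/ml, from *Escherichia coli*), and the control arm saline, both for 2 h. The labels name no engineered allele. Each arm gave 1 library of the 10X Genomics 3′ v2 kind, so there was no replicate and no test was made.

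Cytokines that act through receptors without a kinase of their own activate Janus kinases (JAKs), which phosphorylate STAT transcription factors. STAT dimers then switch on, among others, the genes of their own inhibitors. The suppressors of cytokine signalling (SOCS proteins, with CIS, the product of *Cish*) bind JAKs or phosphorylated receptors through an SH2 domain and recruit an ubiquitin ligase through the SOCS box. SOCS1 and SOCS3 also inhibit JAKs directly. STAT3 carries signals of the interleukin-6 family, and PIM1 is a serine/threonine kinase whose gene is a known STAT target. LPS acts through Toll-like receptor 4 and reaches this pathway mainly through cytokines and interferons that the treated cells release.

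Promoters were shown for *Cish* and *Socs1* because these 2 genes had the most clusters at least 2-fold higher with LPS and because their sequences hold repeats of a motif. The sequences are those of RefSeq, build GRCr8, for the 250 bases before the start of the transcript, 5′ to 3′ on the strand of the gene. The table held 5 of the 6 genes, and *Socs2* was not among them. In *Cish* (chr8:116850719-116850968, plus strand) capitals mark TTCNNNGAA, the spaced palindrome that STAT dimers bind. In *Socs1* (chr10:5389324-5389573, plus strand) capitals mark 2 overlapping runs of GAAA, any 2 bases and GAAA, the repeat of interferon-stimulated response elements.
Cish: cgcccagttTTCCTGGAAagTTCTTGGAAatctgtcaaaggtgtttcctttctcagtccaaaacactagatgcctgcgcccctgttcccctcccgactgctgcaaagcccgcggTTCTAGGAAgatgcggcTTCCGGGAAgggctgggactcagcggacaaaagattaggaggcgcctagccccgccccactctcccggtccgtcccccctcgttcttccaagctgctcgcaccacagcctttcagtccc
Socs1: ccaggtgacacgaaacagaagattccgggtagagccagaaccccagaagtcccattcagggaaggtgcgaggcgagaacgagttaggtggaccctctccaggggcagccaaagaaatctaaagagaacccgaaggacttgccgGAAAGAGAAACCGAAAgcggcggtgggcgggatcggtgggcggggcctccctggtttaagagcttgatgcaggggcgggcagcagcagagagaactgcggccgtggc

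TTCNNNGAA began at 4 places in the *Cish* promoter, 241, 230, 136 and 119 bases before the start. Searched on both strands, at least 1 match was found in 8.87% of the 33469 promoters of the table, each a window from 250 bases before to 50 bases after the start. At least 2 matches were found in 0.547% of them, and at least 4 in only 2 promoters. The first and the last match of *Cish* also met the stricter TTCCNGGAA, every match of which is also one of TTCNNNGAA, and which 1.27% of the promoters held. The *Socs1* promoter had 1 TTCNNNGAA, 196 bases before the start, and 2 interferon repeats (GAAA, any 2 bases, GAAA) that overlap by their shared GAAA, 107 and 101 bases before it. At least 1 such repeat was found on either strand in 3.92% of the promoters and at least 2 in 0.266%. This motif was chosen after the values of *Socs1* in cluster 7 had been seen. No TTCNNNGAA and no interferon repeat lay in the windows of *Socs3*, *Stat3* and *Pim1*. The AP-1 motif TGANTCA (7.33% of promoters) was in none of the 5 windows, and the NF-κB-like pattern of GGG, any 5 bases and CC (47.3% of promoters) was in those of *Socs1*, *Socs3*, *Cish* and *Pim1*. A match is a run of letters and does not show that a factor was bound. The windows follow the transcript starts of the table, and whether these are the starts used in these cells was not tested. A motif missing from a window, as for *Socs3* and *Pim1*, therefore does not show that the promoter in use lacks it.

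The control library held 11531 cells with a median of 12479 UMIs (unique molecular identifiers, 1 for each captured RNA molecule), and the LPS library 12689 cells with a median of 9432. They shared 194 cell barcodes. The authors named clusters 0, 1 and 7 Fibroblast, cluster 3 ICA and Cardiomyocyte, clusters 4 and 5 Endothelial and cluster 6 Macrophages, and left clusters 2, 8, 9 and 10 without a type. Genes of cycling cells led cluster 1, and genes of the interferon response (*Mx1*, *Ifit3*, *Isg15*) led cluster 7. Cluster 2 was pericyte-like (*Rgs5*, *Kcnj8*, *Abcc9*) and cluster 8 mesothelial-like (*Upk1b*, *Msln*, *Bnc1*). The summed level of 8 pericyte markers was highest in cluster 2, at 1373 (control) and 1132 (LPS) UMIs in every 1000000. That of 6 smooth muscle markers was also highest there, at 2543 and 2423, so the name does not set pericytes apart from smooth muscle cells. The labels call the cells of both libraries ICA cells, but of the cells in clusters only the 836 control and 929 LPS cells of cluster 3 had summed levels of 6 ICA marker genes above 21 UMIs in every 1000000 (75.2 in control and 82.1 in LPS). In these cells *Ddc* had 351 and 312 UMIs and *Dbh* 180 and 136, while *Th*, the gene of the first enzyme of the pathway, was at 0 in both libraries. In cluster 3 the cardiomyocyte markers were at their highest over all clusters. The 9 fibroblast markers had a summed level in clusters 3, 4, 5 and 6 that was between 15.3% and 23.9% of that of cluster 9, the highest, and the 12 macrophage markers outside cluster 6 stayed between 0.306% and 0.982% of their level in it. UMIs of marker genes of one cell type were thus also counted in clusters named for others.

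Levels are given as CPM: the UMIs of a gene, added up within a cluster and library, for every 1000000 UMIs of that cluster and library. Since each type was measured as a sum, fewer expressing cells and less RNA per cell cannot be told apart in it. Intervals are at 95% and cover counting error only, and the libraries may also differ through their handling. A gene was counted as higher or lower in a cluster where the ratio of LPS to control was at least 2 or at most 0.5 and both libraries together had at least 20 UMIs. Of the 66 pairs of a gene and a cluster, 41 reached this minimum. Of these 41, 13 were at least 2-fold higher with LPS and 0 were at least 2-fold lower. The interval of the ratio lay above 1 in 26 pairs and below 1 in 2, and it included 1 in the others. For counts by interval, here and below, no share of all genes is given, so they have no background to be read against. *Cish* was higher in 5 of the 8 clusters where it had the minimum, *Socs1* in 4 of 7, *Pim1* in 2 of 5, *Socs2* in 1 of 7, *Stat3* in 1 of 11 and *Socs3* in 0 of 3. Among the 13, *Socs1* in cluster 7 and *Pim1* in cluster 6 had 2 control UMIs each and reached the minimum through their LPS UMIs.

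The count was read against all genes with the minimum in the same cluster. In cluster 0, 1 of the 6 genes (*Cish*) was higher, where 3.64% of all genes were higher and 11.5% were lower. In cluster 1, 2 of 6 (*Socs1* and *Cish*) were higher against 3.39% of all genes, with 7.58% lower. One of 5 (*Socs1*) was higher in cluster 2, against 3.06% with 7.07% lower. Cluster 3 had 0 of 3 higher against 2.27%, with 3.29% lower. One of 6 (*Pim1*) was higher in cluster 4, against 3.03% with 6.6% lower. Cluster 5 had the most, with 3 of 4 (*Socs1*, *Socs2* and *Cish*) higher against 4.86%, with 6.74% lower. In the macrophages of cluster 6, 2 of 5 (*Cish* and *Pim1*) were higher against 4.73%, with 16.2% lower. In the small clusters, 1 of 2 genes was higher in cluster 7 (*Socs1*, 5.17% of all genes), 1 of 2 in cluster 8 (*Cish*, 3.58%), 1 of 1 in cluster 9 (*Stat3*, 5.2%) and 0 of 1 in cluster 10 (6.41%). Of all genes, 6.79%, 4.38%, 5.41% and 3.79% were lower in clusters 7, 8, 9 and 10. Over all clustered cells, 1 of 6 (*Socs1*, ratio 2.17) was higher against 3.55%, with 10% lower. The median log2 ratio of the genes with the minimum was 0.49 in cluster 0, 0.42 in cluster 3, 0.68 in cluster 4, 1.19 in cluster 5 and 0.30 in cluster 6, beside medians over all genes of -0.15, -0.01, -0.10, -0.07 and -0.34. Centring the libraries on the median ratio of all genes shifted the log2 scale by -0.12 in cluster 0, -0.11 in cluster 2 and -0.25 in cluster 6, so that ratios there would be higher by that much, and by less than 0.1 in the others.

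**Figure D1:**
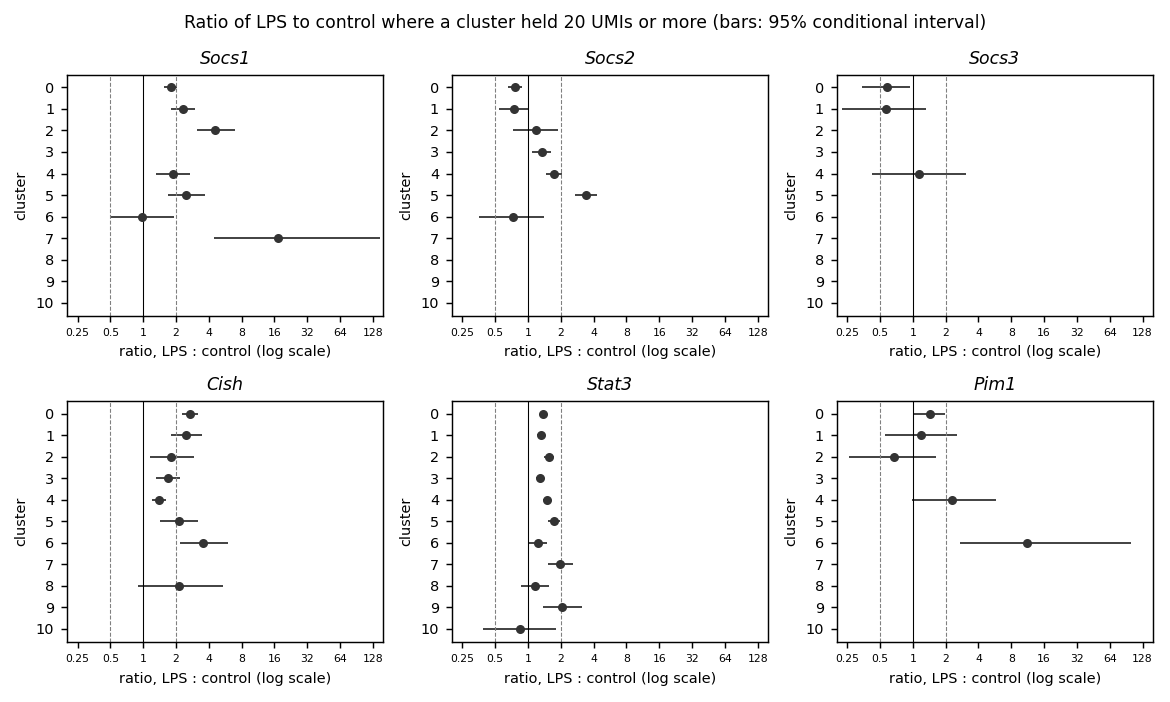
Ratio of LPS to control (x, log scale) of each gene in each cluster (y) with at least 20 UMIs; bars are 95% conditional intervals for counting error and dashed lines mark ratios of 0.5 and 2. The points of *Socs1*, *Cish* and *Stat3* lie mostly to the right of 1, those of *Socs2* lie on both sides, from 0.723 in cluster 6 to 3.40 in cluster 5, and no point reaches 0.5.

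*Socs1* (ENSRNOG00000002568), the inhibitor of JAKs induced by interferons, was higher with LPS in 6 of the 7 clusters with the minimum, by its interval, while in macrophages the interval included 1. In the fibroblasts of cluster 0 it had 341 UMIs (3.77 CPM) in control and 495 (6.71 CPM) in LPS, a ratio of 1.78 (95% interval 1.55 to 2.05). In cluster 1 it went from 100 to 194 UMIs and in the endothelial cluster 5 from 38 to 100 UMIs (8.94 and 21.97 CPM), ratios of 2.31 and 2.46 (1.68 to 3.67). The pericyte-like cluster 2 went from 32 to 132 UMIs, or from 3.42 to 15.7 CPM, a ratio of 4.60 (3.11 to 7.0) that was above that of 99.2% of the genes of the cluster. After each cell was thinned to 3000 UMIs, 0.673% of its control and 4.09% of its LPS cells held a *Socs1* UMI, a difference of 3.42 percentage points (2.29 to 4.63). The interferon-led fibroblasts of cluster 7 had 2 UMIs among 104 control cells, and 36 among 144 LPS cells, held by 29 of these cells. Their ratio was 17.3 (4.45 to 148), and the ratio of this ratio to that of cluster 0 was 9.71 (2.32 to 40.6). The 2 control UMIs (1.37 CPM) lie under the 3 counts that a count of 0 allows. The minimum was reached there only through the LPS library, so the size of this ratio is poorly known. Beside it, the summed level of 7 interferon-response genes in cluster 7 was 839 CPM in control and 2839 CPM in LPS. The same sum was 43.3 and 196 CPM in cluster 0 and 83.6 and 415 CPM in cluster 2. Cluster 1 had 41.3 and 174 CPM. It was 189 and 792 CPM in cluster 4, 79.3 and 439 CPM in cluster 5 and 88.9 and 621 CPM in macrophages. In macrophages the *Socs1* ratio was 0.98. The part of these genes in the *Socs1* differences was not tested. The fibroblasts of clusters 0, 1 and 7 joined gave a *Socs1* ratio of 1.99 (1.77 to 2.24), just under 2-fold.

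The macrophages of cluster 6 had 23 *Socs1* UMIs in control and 18 in LPS, at 7.38 and 7.24 CPM, a ratio of 0.98 (0.499 to 1.90). The ratio of cluster 2 to that of cluster 6 was different beyond counting error, with cluster 6 at 0.213 (0.103 to 0.441) of cluster 2. Against cluster 0 it was at 0.551 (0.293 to 1.04), which includes 1. In cluster 3 there were 6 control and 11 LPS UMIs, under the minimum. In control cells no neighbouring clusters in the order of levels differed beyond counting error, but cluster 5 was at 2.37 (1.65 to 3.32), cluster 6 at 1.96 (1.23 to 2.99) and cluster 3 at 0.225 (0.0820 to 0.495) times the level of cluster 0. In LPS cells, clusters 7 (23.7 CPM) and 5 led and did not differ from each other, cluster 2 came next, and cluster 3 at 2.01 CPM was lower than cluster 0. The 2-fold difference of cluster 1 was not kept after thinning, where its log2 ratio was 0.88.

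*Cish* (ENSRNOG00000029543), whose product CIS competes with STAT5 for activated receptors, was higher with LPS in 7 of 8 clusters by its interval. In cluster 0 it had 209 UMIs (2.31 CPM) in control and 455 (6.17 CPM) in LPS, a ratio of 2.67 (2.26 to 3.16). In macrophages it had 23 UMIs in 23 cells in control and 65 UMIs in 53 cells in LPS, at 7.38 and 26.1 CPM, a ratio of 3.54 (2.17 to 5.97). The thinned share of macrophages with a *Cish* UMI was 3.91% in control and 10.0% in LPS, a difference of 6.09 percentage points (1.91 to 10.4). The endothelial clusters 4 and 5 had ratios of 1.38 and 2.11, with 331 and 38 UMIs in control and 401 and 86 in LPS. Cluster 4 had the highest levels in both libraries, 29.8 and 41.2 CPM, and the ratio of macrophages was 2.56 (1.56 to 4.21) times its ratio. The level of cluster 4 did not differ beyond counting error from that of the small cluster 10, next in order, which rested on 3 and 6 UMIs. In cluster 8 the 9 control and 18 LPS UMIs gave 2.12 (0.903 to 5.35), which includes 1.

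In cluster 3, *Cish* had 111 UMIs in control and 144 in LPS (15.7 and 26.3 CPM), a ratio of 1.68 (1.30 to 2.17). The thinned share there was 5.74% and 6.59%, a difference of 0.846 percentage points (-1.44 to 3.10). Thinned to 5000 UMIs, it was 7.38% of 800 control and 11.8% of 535 LPS cells, a difference of 4.40 percentage points (1.21 to 7.81). Cells with fewer UMIs, 36 in control and 394 in LPS, were left out there. This difference therefore covers the deeper cells only, and the libraries lost unequal parts of the cluster. Without the cells outside cluster 6 that held a UMI of a macrophage marker, the log2 ratio of *Cish* in cluster 1 was 0.59 in place of 1.30. That in cluster 5 was 0.98 in place of 1.08, and both were then under 2-fold. This filter kept 6923 of 11529 control cells and 10080 of 12681 LPS cells. Deeper cells are more likely to hold such a UMI, and the part of depth in these changes was not tested. Thinning moved the log2 ratio of cluster 5 to 0.51 and that of cluster 1 to 0.98, and clusters 4 and 5 joined gave a ratio of 1.42 (1.24 to 1.63).

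*Socs2* (ENSRNOG00000008965), a feedback inhibitor of growth hormone signalling, differed in direction between cell types. The endothelial cells of cluster 5 had 99 UMIs in 76 of 350 control cells and 360 UMIs in 209 of 443 LPS cells. Their level was 23.3 CPM in control and 79.1 CPM in LPS, a ratio of 3.40 (2.71 to 4.29). Cells with at least 2 *Socs2* UMIs numbered 21 in control and 89 in LPS, and after thinning the share of cells with any was 6.86% and 19.5%, a difference of 12.6 percentage points (7.97 to 17.2). The other endothelial cluster, 4, had 228 and 344 UMIs (20.5 and 35.3 CPM), a ratio of 1.72 (1.45 to 2.05). The ratio of cluster 5 was 1.97 (1.49 to 2.60) times that of cluster 4. In the fibroblasts of cluster 0, 479 control and 294 LPS UMIs (5.29 and 3.99 CPM) gave 0.753 (0.649 to 0.873), and 30.7% of all genes with the minimum in the cluster had a smaller ratio. Cluster 1 gave a similar 0.744 with an interval that includes 1 (0.541 to 1.02), and clusters 0, 1 and 7 joined gave 0.747 (0.654 to 0.852).

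The ratio of *Socs2* in cluster 5 was 4.51 (3.46 to 5.88) times that in cluster 0. In the thinned cells of cluster 0 the share with a *Socs2* UMI was 1.59% and 1.20%, a difference of -0.395 percentage points (-0.798 to -0.00102). The pericyte-like cluster 2 had 37 and 39 UMIs, a ratio of 1.18, and macrophages 26 and 15 UMIs, a ratio of 0.723, both with intervals that include 1. Cluster 3 had the highest control level, 29.9 CPM from 212 UMIs, and 40.0 CPM from 219 UMIs in LPS, a ratio of 1.33 (1.10 to 1.62). In control cells its level was above that of cluster 5, next in order, beyond counting error, and it was 5.66 (4.79 to 6.67) times that of cluster 0. The interval of the small cluster 10, with 1 control UMI, was 0.176 to 38.7 CPM and held the level of cluster 3. In LPS cells cluster 5 was first and cluster 3 did not differ from cluster 4. The summed level of 9 endothelial markers in cluster 3 was 5.71% and 5.95% of that in cluster 4, and the part of endothelial UMIs in its *Socs2* level was not tested. Thinned, 8.37% (control) and 11.8% (LPS) of the cells of cluster 3 carried a *Socs2* UMI, and without thinning 21.8% and 20.5%, at median depths of 7526 and 5269 UMIs.

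**Figure D2:**
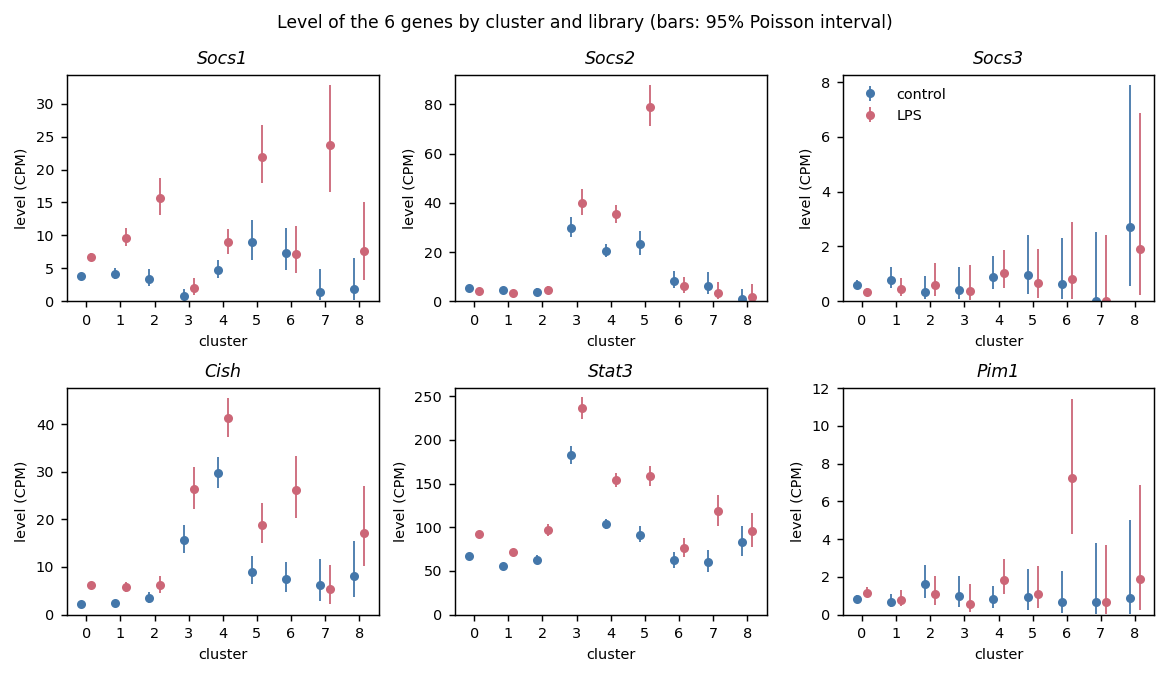
Level in CPM (y, a separate scale for each gene, from 0) in clusters 0 to 8 (x) of the control and LPS libraries, with bars for the 95% Poisson interval; clusters 9 and 10 are left out because they held fewer than 70 cells in each library. *Socs2* stands highest in clusters 3, 4 and 5 in both libraries, reaching 79.1 CPM in the LPS cells of cluster 5, and *Pim1* is highest in the LPS macrophages, at 7.24 CPM.

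*Socs3* (ENSRNOG00000002946), the inhibitor of signalling through gp130, the receptor shared by the interleukin-6 family, was hardly detected in either library. Its UMIs numbered 97 over 11529 control cells and 59 over 12681 LPS cells, with no cell holding more than 1. Macrophages had 2 UMIs in each library, cluster 3 had 3 and 2, and cluster 5 had 4 and 3. Where the minimum was reached, cluster 0 went from 53 to 25 UMIs (0.586 and 0.339 CPM), a ratio of 0.579 (0.345 to 0.948). Clusters 1 (19 and 9 UMIs) and 4 (10 and 10 UMIs) had intervals that include 1. The difference in cluster 0 varied between settings, the thinned values rest on few UMIs, and the part of depth was not tested. Without thinning, at unequal depth, 0.803% of control and 0.356% of LPS cells held a *Socs3* UMI, a difference of -0.447 percentage points (-0.719 to -0.194). Thinned to 3000 UMIs, the shares of cells were 0.167% in control and 0.171% in LPS, with a difference of 0.00418 percentage points (-0.146 to 0.151), and the log2 ratio of thinned sums was 0.04 in place of -0.79. Thinned to 1500 UMIs they were 0.0455% and 0.0284%, and thinned to 5000 UMIs 0.244% and 0.189%, both lower in LPS with intervals of the difference that include 0. The kit counts reads near the 3′ end of transcripts, and whether the gene models behind these counts reach the ends of *Socs3* and *Pim1* was not tested. Low counts of these genes therefore do not show that they were absent.

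*Stat3* (ENSRNOG00000019742) was the only one of the 6 genes with the minimum in all 11 clusters, and it was moderately higher with LPS in most. In cluster 0 it had 6039 UMIs (66.7 CPM) in control and 6806 (92.3 CPM) in LPS, a ratio of 1.38 (1.34 to 1.43). Cluster 3 had the highest level in control cells, 183 CPM from 1294 UMIs, and 236 CPM from 1296 UMIs in LPS, a ratio of 1.29 (1.20 to 1.40). Clusters 4 and 5 had ratios of 1.49 (1.38 to 1.61) and 1.73 (1.53 to 1.97), with 103 and 91.5 CPM in control and 154 and 159 CPM in LPS. The interferon-led cluster 7 had 88 and 180 UMIs, a ratio of 1.96 (1.51 to 2.56), which was 1.42 (1.10 to 1.84) times that of cluster 0. Cluster 9, which was small and, like cluster 3, rich in mitochondrial UMIs, had 46 and 59 *Stat3* UMIs, a ratio of 2.06 (1.38 to 3.10). Its ratio was under 2 with the mean of the cells' own CPM, with the median-ratio scaling and without the 8% of cells with the most UMIs. In macrophages 194 and 190 UMIs gave 1.23 (0.999 to 1.51), and in clusters 8 and 10 the interval also included 1.

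At equal depth the share of cells with a *Stat3* UMI was 17.5% in control and 23.9% in LPS in cluster 0, and 43.7% and 51.4% in cluster 3, a difference of 7.74 percentage points (3.07 to 12.4). Without thinning the shares of cluster 3 were 75.0% and 71.9%, in the opposite order, at the median depths given above. Macrophages had 13.2% and 21.4% after thinning to 3000 UMIs, a difference of 8.21 percentage points (2.00 to 14.4). The difference was -1.01 points at 1500 UMIs, 6.95 (-0.825 to 14.7) at 5000 UMIs and 0.287 without thinning, with intervals that include 0. In control cells, cluster 3 was above the others, and clusters 10, 4, 9 and 5, next in order, did not differ between neighbours beyond counting error. In LPS cells, cluster 3 did not differ from cluster 9, and cluster 1, at 71.7 CPM, was the lowest but did not differ beyond counting error from cluster 6, at 76.4 CPM.

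**Figure D3:**
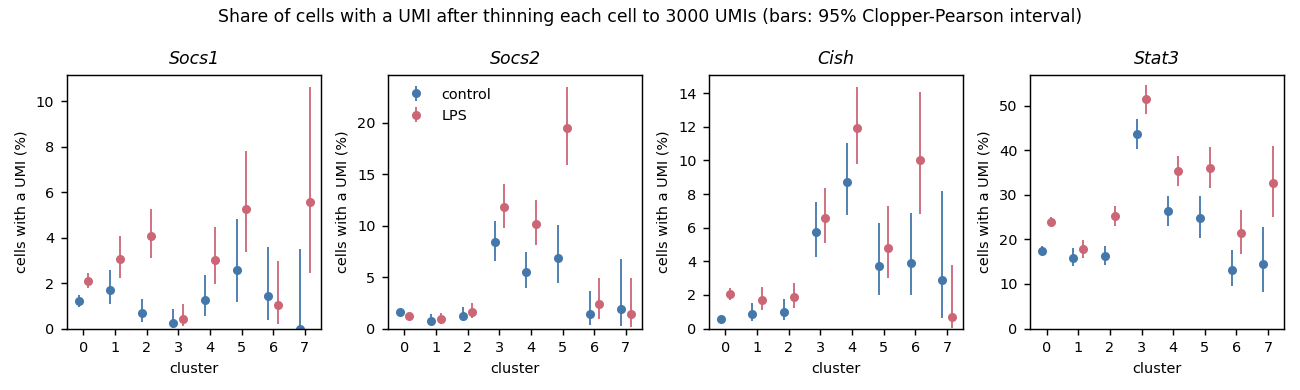
Share of cells with at least 1 UMI (y, in percent, a separate scale for each gene) in clusters 0 to 7 (x) after thinning each cell to 3000 UMIs, with 95% Clopper-Pearson intervals for *Socs1*, *Socs2*, *Cish* and *Stat3*. The LPS share of *Socs2* in cluster 5 (19.5%) lies above the control share (6.86%) with no overlap of the intervals, and the share of *Stat3* is highest in cluster 3 in both libraries.

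*Pim1* (ENSRNOG00000000529) was rare, and its highest level was in LPS macrophages. Over all cells it had 129 UMIs in control and 158 in LPS. Macrophages had 2 UMIs among 281 control cells, and 18 among 291 LPS cells, each in a cell of its own, at 0.642 and 7.24 CPM, a ratio of 11.3 (2.70 to 100.2). After thinning, 0 of 281 control macrophages (3 counts, the limit that a count of 0 allows, would be 1.07%) and 3.10% of the 290 LPS macrophages of sufficient depth had a *Pim1* UMI, a difference of 3.10 percentage points (1.11 to 5.79). The ratio was 7.91 (1.78 to 35.2) times that of cluster 0, where 74 and 86 UMIs gave 1.43 (1.03 to 1.97). In cluster 4, 9 and 18 UMIs gave 2.29 (0.975 to 5.78), which includes 1. The 20 UMIs of macrophages are just at the minimum and mostly from the LPS library, and the 2 in control lie under 3 counts. With a minimum of 50 UMIs neither the difference in macrophages nor that in cluster 4 would be counted. Cluster 3 had 7 control and 3 LPS UMIs. In LPS cells the level of macrophages did not differ beyond counting error from that of cluster 8, next in order, with 2 UMIs. Clusters 9 and 10 had 0 LPS UMIs, with intervals up to 13.2 and 23.1 CPM.

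Of the 3 genes with the minimum in cluster 3, where the study looked for ICA cells, none was at least 2-fold higher or lower. The cells there with a UMI of *Dbh*, the gene of the enzyme that makes norepinephrine, numbered 156 in control and 121 in LPS, with medians of 8200 and 5379 UMIs. In these cells *Socs2* had 42 control and 44 LPS UMIs, at 28.7 and 60.8 CPM, a ratio of 2.12 (1.36 to 3.31). In the 680 and 808 cells of the cluster without a *Dbh* UMI, *Socs2* had 170 and 175 UMIs, at 30.3 and 36.8 CPM, a ratio of 1.22 (0.978 to 1.51). The first ratio was 1.74 (1.09 to 2.79) times the second, 1 of 4 genes so compared, with no adjustment for their number. For *Stat3* the cells with a *Dbh* UMI gave 268 and 185 UMIs, or 183 and 256 CPM, a ratio of 1.40 (1.15 to 1.69), close to the 1.28 of the others. *Cish* gave 21 and 15 UMIs, a ratio of 1.44 (0.692 to 2.94). *Socs1* had 0 and 2 UMIs, *Pim1* 1 and 2, and *Socs3* 0 in both, where 0 UMIs allow up to 2.05 CPM (3 counts) in control. Every class of cells held UMIs of *Stat3*, *Socs2* and *Cish*, so that no class could serve as one that lacks them.

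The pathway around the 6 genes was described by lists of its other members: ligands, receptors, JAKs, STATs, SOCS genes, the SOCS-box ligase, other inhibitors, PIM kinases and STAT3-linked targets. Of 98 listed gene names, some of them older names of genes also listed, 93 were in the gene list. The other names were not analysed here. In cluster 0, 77 had the minimum, of which 15 were at least 2-fold higher and 4 lower. Of all genes in cluster 0, 3.64% were higher and 11.5% lower, as given above. The counts for the listed genes were 63, 9 and 3 in cluster 3 (2.27% and 3.29% of all genes higher and lower), 67, 11 and 3 in cluster 4 (3.03% and 6.6%), 61, 16 and 3 in cluster 5 (4.86% and 6.74%), and 63, 16 and 7 in macrophages (4.73% and 16.2%). *Jak2*, the kinase of many cytokine receptors, was the only higher gene among the JAKs with the minimum in each of clusters 0 to 9. All 4 JAKs had the minimum in clusters 0 to 6, 3 in cluster 7, 2 in cluster 8 and only *Jak2* in cluster 9. In cluster 0, *Jak2* had 1715 control and 13975 LPS UMIs (19.0 and 189 CPM), a ratio of 10.0 (9.51 to 10.5). Its ratio was 4.08 in cluster 3, 5.78 in cluster 4, 14.02 in cluster 5 and 3.94 in macrophages. *Tyk2* was at 0.807 in cluster 0 and 0.381 (0.215 to 0.653) in cluster 5. *Stat2*, which acts in type I interferon signalling, was at 1.76 in cluster 0, 1.60 in cluster 3 and 2.42 (1.75 to 3.38) in macrophages, and *Stat5b* was at 0.648 (0.552 to 0.760) in cluster 0.

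Of the other SOCS genes, none was past 2-fold in clusters 0 to 7. *Socs5* was at 0.765 (0.729 to 0.802) in cluster 0 and at 0.976 in cluster 3, and *Socs6* at 1.11 and 0.915. The listed genes of the SOCS-box ligase were within 2-fold in these clusters as well. *Rbx1* was at 1.40 in cluster 0 and 1.55 in macrophages, and *Rnf7* at 1.13 and 0.775 (0.679 to 0.885). Against 3.58% of all genes in cluster 8, 1 of the 6 ligase genes was higher there, *Cul5*, with 7 control and 21 LPS UMIs. Its ratio was 3.18 (1.30 to 8.84), and it was named after its values were seen. Among the other inhibitors, *Usp18*, which blocks the interferon receptor, was at 6.47 (5.57 to 7.56) in cluster 0, 6.52 in cluster 4 and 2.2 in cluster 3. The phosphatase gene *Ptpn1* was at 4.86 (3.99 to 5.94) in macrophages, with 129 control and 500 LPS UMIs, and *Ptpn6* at 0.346 (0.280 to 0.425) with 427 and 118. *Pim3* was at 2.00 (1.46 to 2.76) in macrophages, where *Pim2* did not have the minimum, and *Pim2* at 0.387 in cluster 3 with 30 and 9 UMIs.

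The ligands were led by *Csf3*, with 26 control and 2591 LPS UMIs in cluster 0 (0.287 and 35.1 CPM). Macrophages had 1 and 5516 *Csf3* UMIs (0.321 and 2219 CPM). *Il6* had 1 and 507 UMIs in macrophages (0.321 and 204 CPM) and 3 and 19 in cluster 3 (0.424 and 3.47 CPM). The part of macrophage UMIs in the levels of *Csf3* and *Il6* outside cluster 6 was not tested. Among receptors, *Il6r* was at 0.217 (0.094 to 0.444) in macrophages with 52 and 9 UMIs and at 6.54 (2.29 to 25.6) in cluster 5 with 4 and 28 UMIs. *Cntfr* was at 0.255 (0.191 to 0.338) in cluster 0. *Ifngr1*, a chain of the interferon gamma receptor, was at 2.75 in cluster 0 and 2.29 (2.17 to 2.42) in cluster 4. In macrophages *Ifngr1* was at 0.771 (0.637 to 0.931). Of the STAT3-linked targets, *Bcl3* was at 3.53 in cluster 3, 4.85 in cluster 4 and 7.02 (4.02 to 13.1) in macrophages. *Hp*, an acute-phase gene, was at 6.96 (5.84 to 8.35) in cluster 0, where *Fgl2* was at 0.169 (0.130 to 0.218), and *Ccnd1* was at 0.230 in macrophages.

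**Figure D4:**
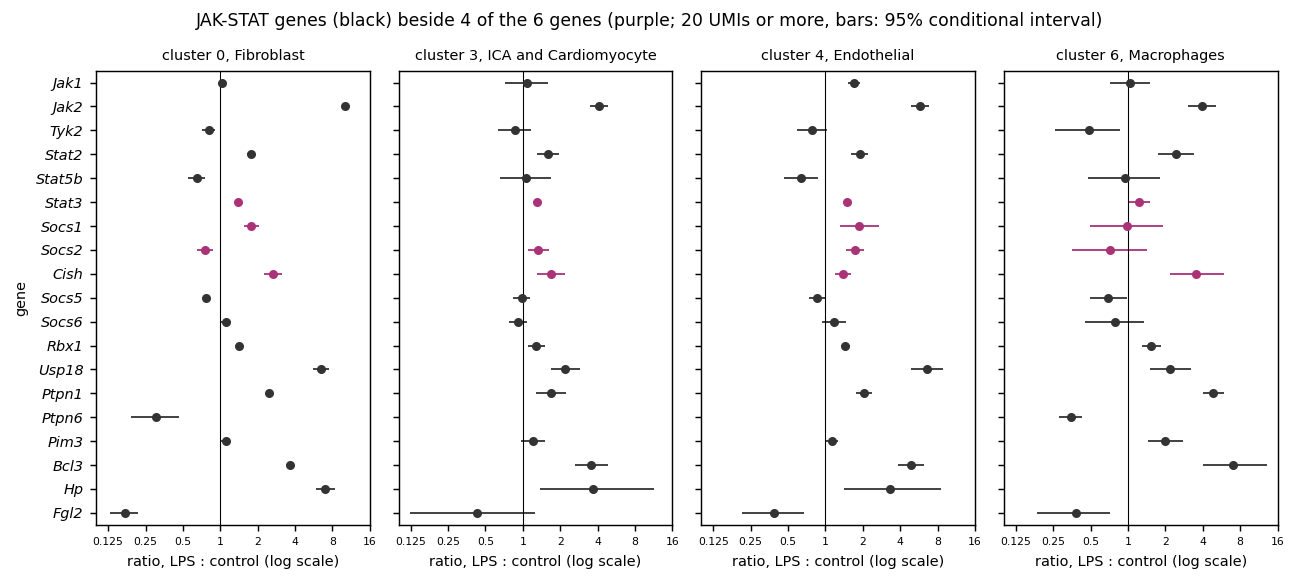
Ratio of LPS to control (x, log scale) of 15 other genes of the pathway and of *Stat3*, *Socs1*, *Socs2* and *Cish* in clusters 0, 3, 4 and 6, with 95% conditional intervals; a gene with fewer than 20 UMIs in the cluster has no point. *Jak2* lies far to the right in all 4 clusters, from 3.94 to 10.0, while *Socs5* lies between 0.696 and 0.976.

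The patterns most like those of the 6 genes were sought among genes with at least 500 UMIs over 20 classes, each a cluster with at least 50 cells in 1 library. The classes share libraries and differ in depth, so the correlations (Pearson, on log2(CPM + 1)) are a description only. *Skil*, *Tifa* and *Rpia* were most like *Socs1*, with r of 0.90, 0.88 and 0.86. *Rasgrp3* and *Mtus1* were among those most like *Socs2*, each with r of 0.89, and *Patl1*, *Ankrd13c* and *Nlk* most like *Cish*, with r between 0.80 and 0.87. For *Stat3* they were *Psen2*, *Psmd1* and *Ppp2r1a*, with r between 0.86 and 0.91. For *Socs3* (156 UMIs) *Plac8*, *Hdac4* and *Amd1* and for *Pim1* (287 UMIs) *Cop1*, *Psmd11* and *Fam177a1* came first, with r between 0.78 and 0.84, and both lists rest on few UMIs.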

How the data were processed

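Per the labels and the study's methods, libraries were made with the Chromium 3′ v2 kit. The deposited values are raw UMI counts per gene and cell, which the authors left without normalization, with a table of their cluster and cell type for each cell. The submitters' processing notes name Cell Ranger 2.2.0 and Seurat 2.3.4. The genome build and annotation behind the counts are not given in the sources used here.

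The 6 genes and all lists were chosen with earlier results of these data known. Named genes were the 6 members in every cluster, the 2 of each list that were farthest from equal levels (log2 ratio, with 0.5 UMI added to each sum) in clusters 0, 3, 4 and 6, and the 3 most alike in pattern to each member, 1 of which is not reported here. Values of such genes in cluster 5 were added after they had been seen. Some genes of the lists that met the rule for named genes, among them *Csf2*, *Epor*, *Il15ra* and *Stat4*, are not reported here.

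UMIs were summed per cluster and library in Python 3.11.15 (numpy 2.4.6, scipy 1.17.1, pandas 2.3.3, matplotlib 3.10.9). Intervals were exact Poisson for levels, exact conditional for ratios, Clopper-Pearson for shares, Newcombe for differences of shares and log-normal for ratios of ratios. Thinning drew 3000 UMIs per cell and left out 75 LPS cells. Thinning to 5000 UMIs left out all cells with fewer, among them 36 control and 394 LPS cells of cluster 3. No further filter or doublet caller was applied, and 2 control and 8 LPS cells without a cluster were left out. The code was tested on simulated data. With 1 library per arm no p-value is given.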

Additional observations from a re-analysis of the deposited data

Results flagged for a closer look

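The direction of the *Socs2* ratio of LPS to control differed between cell types. It was above 1, with an interval that excludes 1, in cluster 3 (1.33), in cluster 4 (1.72) and in cluster 5 (3.40), and below 1 in the fibroblasts of cluster 0 (0.753). Of all genes with the minimum, 90.4%, 95.7% and 98.2% had a smaller ratio in clusters 3, 4 and 5, and 30.7% in cluster 0. The median log2 ratio of all genes in cluster 0 was -0.15. The difference between cell types was not tested across samples, since each arm had 1 library. The intervals of the ratios and of their quotients cover counting error only.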

How the results depend on the processing

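No paired analysis was possible because a single library was made for each treatment. The joining of clusters by cell type and the interferon repeat were chosen after seeing the data, the other alternatives were not. Of 248 recomputed log2 ratios of the 6 genes, 230 stayed within the counting interval of the value reported, 17 moved beyond it and 1 changed direction, counting only values whose reported interval excludes no difference: *Socs3* in cluster 0, 0.036 after thinning to 3000 UMIs. Of 198 differences of shares, 151 stayed, 44 moved and 3 changed direction by the same rule. Differences whose reported interval includes 0 were counted as stayed or moved whatever their sign. The 3 were *Socs2* (-1.32 percentage points) and *Stat3* (-3.09) in cluster 3 without thinning, and *Stat3* in cluster 6 when thinned to 1500 UMIs (-1.01). The 198 also cover pairs under the minimum of summed UMIs. Some of these had no cell with a UMI in either library at 3000 UMIs. Their wide intervals made it likely that they stayed, so the 151 do not measure stability. The number of clusters at least 2-fold higher, 13 over all 6 genes, was 8 after thinning, 21 with a fold of 1.5 and 5 with a fold of 3. Shares of all genes are given below only for the minimum of 50 UMIs and for median-ratio scaling, in some clusters. Counts under the other settings, here and by gene, therefore have no background to be read against. The number lower, 0, was 1 with a minimum of 1 UMI in each library (*Cish* in cluster 9, 0.402) and 2 with a fold of 1.5 (*Socs3* in clusters 0 and 1). *Socs1* had 2 with a fold of 3. *Socs2* had 2 with a fold of 1.5, with a minimum of 1 UMI in each library and without cells holding macrophage marker UMIs. Leaving those cells out kept 6923 control and 10080 LPS cells. *Cish* had 3 without the cells holding macrophage marker UMIs, 2 after thinning and 1 with a fold of 3. *Stat3* had 0 with median-ratio scaling and with a fold of 3, 2 without those cells and after thinning, and 4 with a fold of 1.5. *Pim1* had 1 without those cells and with a fold of 3, and 0 after thinning, with a minimum of 50 UMIs and without the 8% of cells with the most UMIs. With a minimum of 50 UMIs the share of all genes lower was 4.28% in cluster 2, 1.69% in cluster 3, 4.08% in cluster 4, 3.45% in cluster 7, 1.67% in cluster 8, 2.81% in cluster 9 and 0.971% in cluster 10, and the share higher 2.69% in cluster 9 and 3.52% in cluster 10. In cluster 6, where 4.73% were higher and 16.2% lower, median-ratio scaling gave 6.83% and 10.8%. Of the pathway genes in cluster 3, 5 were higher and 0 lower with a minimum of 50 UMIs. Of all genes there, 1.70% were then higher and 1.69% lower. How many pathway genes had that minimum is not given here, so the 5 cannot be read as a share. In cluster 6, 4 of the 63 pathway genes with the minimum were lower with median-ratio scaling. Of the 3 genes most alike in pattern, Spearman's rho on CPM shared 0 for *Socs1*, *Socs2* and *Pim1* and 1 for *Socs3*, *Cish* and *Stat3*. Higher minimums leave fewer genes. Thinning removes UMIs, and a pair that falls under the minimum is not counted whatever its ratio. Thinned to 3000 UMIs, *Pim1* had 0 control and 9 LPS cells with a UMI in cluster 6, and 1 and 6 in cluster 4. *Socs1* had 0 and 8 such cells in cluster 7. These pairs were under the minimum, so their loss does not show a ratio under 2-fold. For the other changes the cause was not tested. *Socs3* and *Pim1* are limited by their few UMIs and clusters 7 to 10 by their few cells.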
